A study of Mus musculus with 12 samples.

Results

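The comparison described here sets a single library of CXCR6+ cells against a single library of SLAMF6+ cells, both from T helper 17 (TH17) cells lacking Il17a and Il17f (2D2-IL-17A/F-DKO, below DKO). These are 2 of the 12 RNA sequencing libraries in the study, identified by their labels. The other 10 came from cells of the 2D2-WT genotype, 5 libraries CXCR6+ and 5 SLAMF6+, and serve as the reference for the same contrast. In all 4 groups TH17 cells had been transferred to RAG2-/- mice and were isolated from the central nervous system, CNS, when disease peaked. For each library 1000 living cells were sorted. The name 2D2 stands for a transgenic receptor specific for a myelin protein, and such cells cause experimental autoimmune encephalomyelitis (EAE), which models multiple sclerosis. RAG2-/- hosts lack lymphocytes with rearranged receptors but keep natural killer (NK) cells, myeloid cells and red cells. The age of the mice is not given in the sources used here, nor whether libraries came from separate animals, so a p-value measures only the spread between these samples, which may be technical. With 1 library in each DKO group there is no replicate error, and the ratios between the DKO libraries are described without a test.

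IL-17A and IL-17F are the cytokines that give TH17 cells their name, and they act on tissue cells to draw in neutrophils. Within such T cells, SLAMF6 marks a stem-like, recirculating state kept by the transcription factor TCF-1 (Tcf7), with the lymph node homing gene Ccr7. CXCR6 marks the effector cells that home to inflamed tissue and make cytokines and granule proteins. The contrast of CXCR6+ with SLAMF6+ cells therefore asks how far these states are set apart, here in cells without IL-17A and IL-17F.

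The targeted genes matched the genotype labels. Il17a had 0 counts in DKO CXCR6+ and 3 in DKO SLAMF6+, Il17f had 1 count in each, and in the WT libraries Il17a ranged from 192 to 478 CPM, the count scaled to library size with haemoglobin genes left out and TMM factors over the 12 libraries. The receptor label was matched in WT only. Trbv16 is the segment of the 2D2 beta chain. Its share of Trbv counts was 99.6 to 99.8% in WT, 9.96% in DKO CXCR6+ (exact 95% interval 9.45 to 10.5%) and 6.51% in DKO SLAMF6+ (6.07 to 6.98%), so most receptor transcripts in both DKO libraries were not of the 2D2 beta segment. Totals were 8552216 counts in DKO CXCR6+ and 8285134 in DKO SLAMF6+, the latter including 989474 haemoglobin counts. Intervals given here cover counting error only, since the reads carry no molecular identifiers.

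The DKO pair differed less than any WT pair of the subsets. Values of the DKO pair are given with CXCR6+ first, and ratios are CXCR6+ over SLAMF6+ unless another direction is named. Among 5599 genes of at least 20 CPM in the higher of both DKO libraries, 180 (3.21%) were at least 2-fold higher in CXCR6+ and 224 (4%) at least 2-fold lower, 404 (7.22%) in all. With haemoglobin counts kept in the library totals and no TMM factor the counts were 358 higher and 146 lower, and the median log2 ratio over all genes was 0.27 in place of 0.01. Of the 404 genes, 214 were protein-coding genes of at least 300 nucleotides (97 higher, 117 lower), 1.97% and 2.38% of the 4912 protein-coding genes at that level. The other calls were largely short RNAs, receptor segments and symbols without a match in the annotation. In bulk RNA, fewer cells of a type and less RNA per cell cannot be told apart.

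The share of protein-coding genes at least 2-fold apart was 4.36% in the DKO pair. It was 16.3 to 23.4% in the 5 WT pairs of CXCR6+ and SLAMF6+ libraries with the same number. Between 2 libraries of the same WT group it was 0.566 to 1.80% for CXCR6+ and 0.215 to 0.581% for SLAMF6+, over 10 pairs each. The DKO pair thus lay below every WT pair of the subsets and above every pair within a WT group. The median absolute deviation of the log2 ratio gave the same order, with 0.37 in the DKO pair, 0.65 to 0.70 in the WT pairs, and 0.16 to 0.33 within groups.

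**Figure D1:**
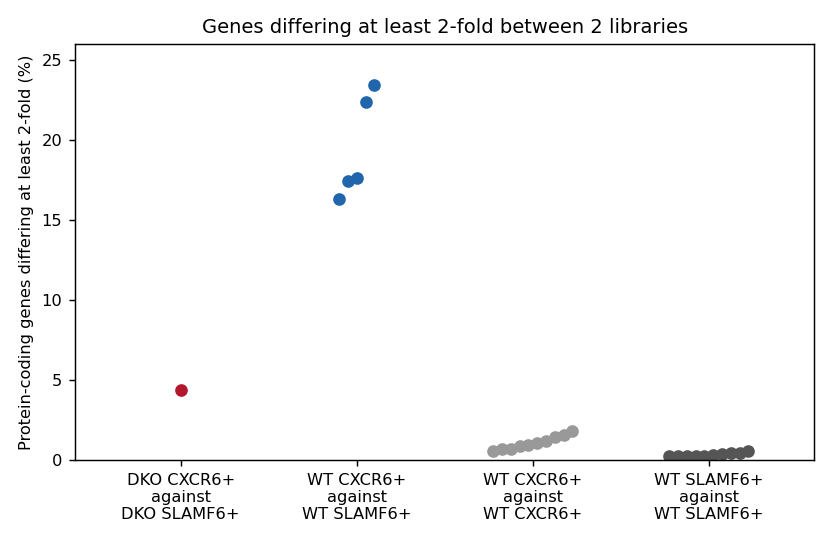
Percent of protein-coding genes (at least 20 CPM in the higher library) that differ at least 2-fold, with 1 point per pair of libraries. The DKO pair, at 4.36%, lies between the WT pairs of the subsets (16.3 to 23.4%) and the pairs within a WT group (0.215 to 1.80%).

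**Figure D2:**
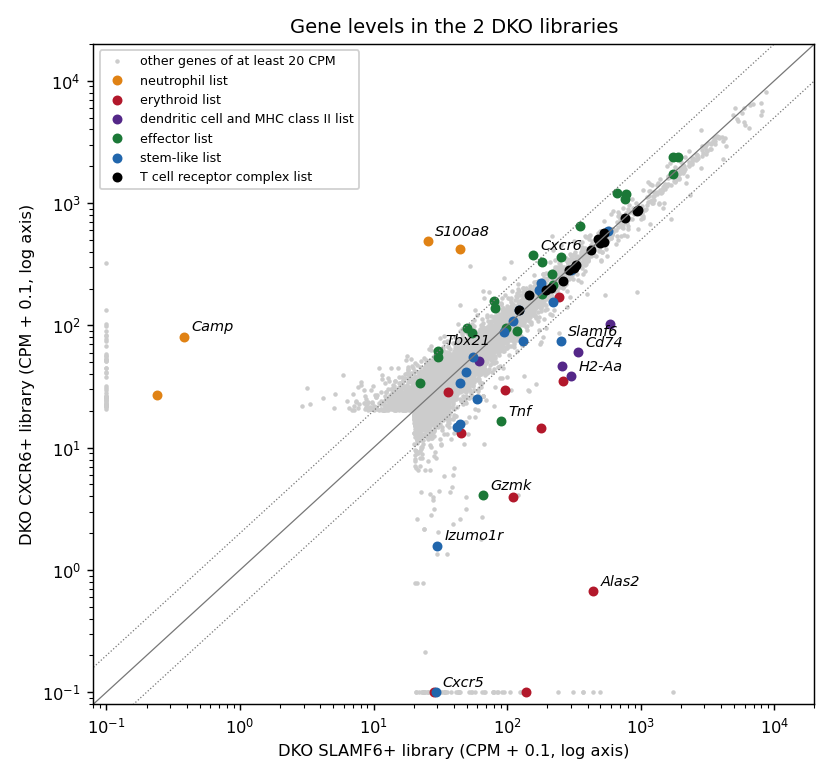
Level of each gene of at least 20 CPM in the higher DKO library, SLAMF6+ on the x axis and CXCR6+ on the y axis, both log axes of CPM + 0.1, with lines at equal levels (solid) and 2-fold (dotted). Points at 0.1 had 0 counts, and the T cell receptor complex genes lie along the solid line while neutrophil, erythroid and MHC class II genes lie away from it.

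The genes of both sorted surface proteins differed in the labelled direction. Cxcr6, the chemokine receptor gene (chromosome 9, 123806475 to 123811760, GRCm38), stood at 375 CPM in the CXCR6+ library against 157 CPM in the SLAMF6+ one, 2.39-fold higher (95% exact interval 2.23 to 2.56). Slamf6 (chromosome 1, 171917515 to 171953170) stood at 74.5 CPM in the CXCR6+ library against 251 CPM in the SLAMF6+ one, 3.37-fold higher in SLAMF6+ (3.08 to 3.69). Neither gene was absent from the opposite library. In WT CXCR6+, Cxcr6 read 42.0, 43.5, 4.34, 20.1 and 22.6 CPM, and in WT SLAMF6+ 19.8, 15.8, 18.1, 16.9 and 11.8 CPM, so both groups overlap. Slamf6 read 1.68, 4.45, 3.43, 2.02 and 5.05 CPM in WT CXCR6+ and 7.31, 5.94, 7.74, 10.8 and 11.4 CPM in WT SLAMF6+, without overlap.

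Whether the contrast differed from that in WT was tested as an interaction, with edgeR's quasi-likelihood F test. Its p-values, below edgeR adjusted p, were adjusted after Benjamini and Hochberg over all 21681 genes tested, and each DKO library was assumed to vary like the WT libraries. The p-values rest on that assumption, since the spread between DKO libraries was not measured. Genotype cannot be told apart here from other differences between the DKO and WT libraries, such as receptor usage. The same kind of test of the WT contrast alone called 3350 genes (15.5%) higher and 3819 (17.6%) lower in CXCR6+. With totals in place of TMM these were 5653 and 1796, so the majority of the WT calls changed side with the scaling. The ratio of Cxcr6 (log2 1.25 in the DKO pair against 0.71 in WT, edgeR adjusted p = 0.901) and that of Slamf6 (-1.75 against -1.35, edgeR adjusted p = 0.827) were not called different. Within WT, Slamf6 fell by 1.35 on the log2 scale (edgeR adjusted p = 0.00468, n = 5 per group), while Cxcr6 did not pass (adjusted p = 0.253), except without replicate 3 of both subsets (log2 1.01, adjusted p = 0.0269; 0.0269 to 0.544 over its alternatives).

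Effector genes leaned towards CXCR6+ in the DKO pair, mostly by less than 2-fold. Of 24 genes of the effector list at 20 CPM or more, 17 were higher in CXCR6+ and 7 lower, with a median log2 ratio of 0.56 beside 0.01 over all genes. At 2-fold, 2 were higher and 2 lower. Apart from Cxcr6 the higher gene was Tbx21, which encodes the TH1 master regulator T-bet, at 62.1 against 30.5 CPM (2.04-fold, interval 1.74 to 2.40). Just under 2-fold lay Klrk1, the gene of the activating receptor NKG2D (157 against 80.0 CPM), Il18r1, an IL-18 receptor subunit (94.3 against 50.2 CPM), and Ccr2, which guides cells into inflamed tissue (328 against 183 CPM). The calcium-binding protein gene S100a4 (1212 against 662 CPM) and Gzmb, a granule protease (55.2 against 30.4 CPM), were close behind. Ccl5, a chemokine gene, was level at 1728 and 1733 CPM.

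Some effector genes that leaned towards CXCR6+ in the DKO pair leaned the other way in WT. Bhlhe40, a transcription factor needed for cytokine production in encephalitogenic T cells, stood at 140 CPM in the CXCR6+ library against 81.5 CPM in the SLAMF6+ one. In WT it read 427, 449, 394, 483 and 403 CPM in CXCR6+ and 572, 535, 565, 576 and 589 CPM in SLAMF6+, lower in every CXCR6+ library. Its interaction was log2 1.13 (edgeR adjusted p = 0.00210). Il2rb, a subunit of the IL-2 and IL-15 receptors, stood at 263 and 216 CPM in DKO CXCR6+ and SLAMF6+. Its WT means were 193 ± 6.11 and 367 ± 22.9 CPM (SD, n = 5 each), and its interaction was log2 1.18 (adjusted p = 0.00113 by the same edgeR test). Lgals1, the galectin-1 gene, behaved alike in size, at 2403 against 1732 CPM in the DKO pair and with an interaction of log2 1.10 (adjusted p = 0.00587 by the edgeR test). For Tbx21 the interaction did not pass (log2 0.69, edgeR adjusted p = 0.376). Lists of other cells also hold some effector genes, that of monocytes Ccr2 and Ly6c2, that of microglia Cx3cr1, that of NK cells Il2rb, Gzma and Prf1, and that of CD8 T cells Gzmk.

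Against the lean of its list, Tnf, the gene of the inflammatory cytokine TNF, was lower in CXCR6+. It stood at 16.4 CPM in the CXCR6+ library against 90.3 CPM in the SLAMF6+ one, 5.52-fold higher in SLAMF6+ (interval 4.60 to 6.67). WT CXCR6+ libraries read 132, 167, 90.7, 130 and 81.4 CPM and WT SLAMF6+ libraries 97.8, 65.5, 62.1, 85.7 and 98.8 CPM. The DKO CXCR6+ library was thus the lowest of the 12, and DKO SLAMF6+ lay within the WT SLAMF6+ range. The interaction was log2 -3.06 (edgeR adjusted p = 0.00629). Gzmk, a granzyme gene of memory CD8 and NK cells, stood at 3.98 against 65.9 CPM, and was at 0 in 9 of 10 WT libraries.

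Stem-like genes leaned towards SLAMF6+. Of 18 genes at the level, 13 were lower in CXCR6+ and 5 higher, with a median log2 ratio of -0.32, and at 2-fold 6 were lower and 0 higher. Among these were Slamf6, Cxcr5, Izumo1r, Id3 and Ccr7. Cxcr5, Izumo1r and Id3 reached the level in SLAMF6+ alone, which fixed their direction. Of the 29 list genes measured, whatever their level, 22 were higher in SLAMF6+ and 7 in CXCR6+. Ccr7, by which T cells enter lymph nodes, stood at 25.1 against 59.3 CPM. Id3, an inhibitor of E proteins kept high in memory precursors, stood at 14.7 against 41.7 CPM. The 2 transcription factor genes most tied to this state differed less, with Tcf7 at 154 against 221 CPM (log2 -0.52) and Lef1 at 88.4 against 94.3 CPM (log2 -0.09). Il7r, the IL-7 receptor gene, was near level at 281 and 299 CPM, as was Klf2, which keeps T cells recirculating, at 55.4 and 55.1 CPM.

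The largest ratios of the stem-like list belonged to Cxcr5 and Izumo1r, genes best known from follicular helper cells. Cxcr5, which guides cells into B cell follicles, had 0 counts against 207 (29.1 CPM), at least 85.4-fold higher in SLAMF6+ against a floor of 3 counts in the library. In the WT libraries it reached at most 1.11 CPM. Izumo1r, the folate receptor 4 gene, stood at 1.48 against 29.9 CPM (20.3-fold, interval 11.6 to 38.7), whereas in WT it stood at 58.1 ± 20.5 CPM (CXCR6+) and 75.7 ± 11.7 CPM (SLAMF6+; SD, n = 5). Its interaction was log2 -3.99 (edgeR adjusted p = 0.00386), but it did not pass with limma-voom (-3.90, adjusted p = 0.104; 9.58e-09 to 0.104 over its alternatives).

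Ccr7 had a like ratio in both genotypes. In WT it read 300, 410, 291, 471 and 299 CPM in CXCR6+ and 746, 793, 754, 745 and 853 CPM in SLAMF6+, a log2 difference of -1.11 (edgeR adjusted p = 7.85e-05). The DKO pair gave -1.23 at far lower levels, and the interaction did not pass (log2 -0.14, edgeR adjusted p = 0.941). Cd27, a costimulatory receptor of less differentiated T cells, had ratios of opposite direction in the DKO pair and in WT. It stood at 75.1 against 131 CPM in the DKO pair but was slightly higher in CXCR6+ in WT (69.9 ± 6.53 against 57.0 ± 3.93 CPM, n = 5), with an interaction of log2 -1.13 (edgeR adjusted p = 0.00522).

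**Figure D3:**
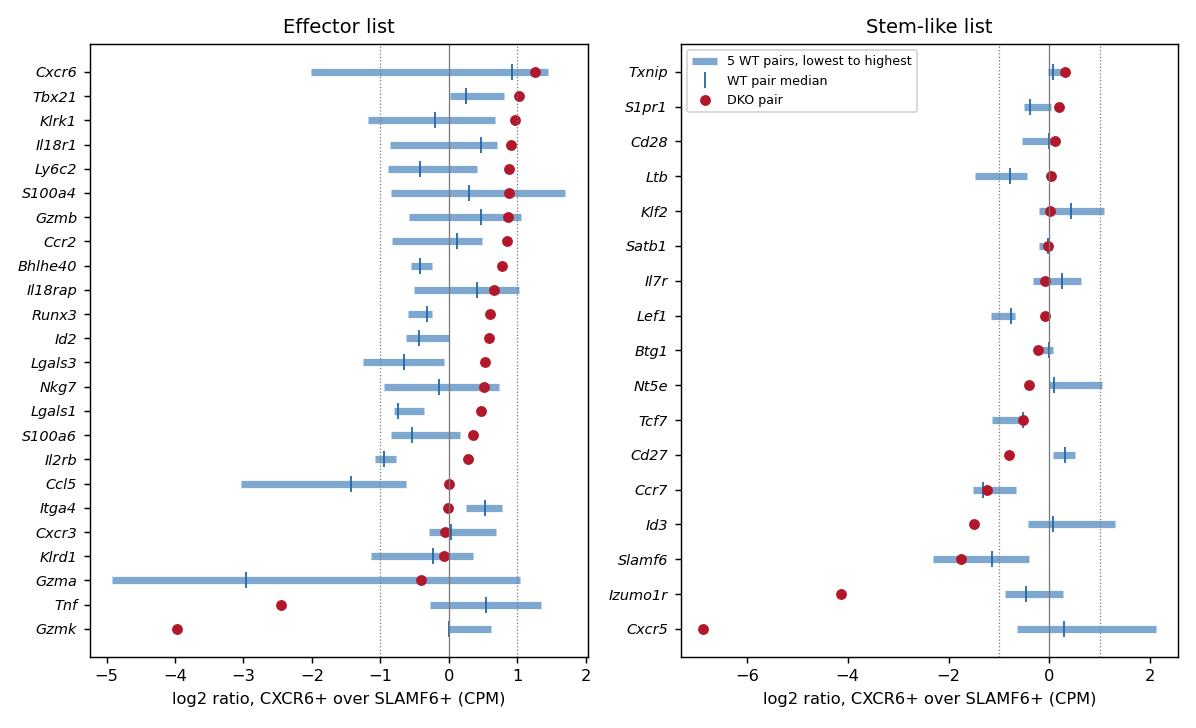
log2 ratio of CXCR6+ over SLAMF6+ for the 24 genes of the effector list and 17 of the 18 genes of the stem-like list at 20 CPM or more (the other is not reported here), for the DKO pair (points) and the 5 WT pairs of the same number (bars from lowest to highest, tick at the median). Dotted lines mark 2-fold, and Tnf, Gzmk, Izumo1r and Cxcr5 lie farthest to the left of their WT bars.

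Genes of the TH17 lineage leaned weakly towards CXCR6+, with members on both sides. Of 12 at 20 CPM or more, 7 were higher and 5 lower in CXCR6+ with a median log2 ratio of 0.31, and at 2-fold the only member was Ltb4r1. Rora, a nuclear receptor of the lineage, stood at 77.8 against 47.4 CPM. Ltb4r1, the leukotriene B4 receptor gene, stood at 66.7 against 33.2 CPM (2.01-fold, interval 1.73 to 2.35), just past the limit. Its interaction was log2 1.33 (edgeR adjusted p = 0.0269). It did not pass with limma-voom (adjusted p = 0.0588), with totals in place of TMM (log2 1.02, adjusted p = 0.100), or without replicate 1, 4 or 5 of both WT subsets (0.0529 to 0.0683), within 0.000889 to 0.100 over all alternatives. Tmem176b, a membrane protein gene of TH17 cells, stood at 191 against 123 CPM in the DKO pair and at 7.74 ± 2.69 against 25.6 ± 4.63 CPM in WT (n = 5), with an interaction of log2 2.32 (edgeR adjusted p = 0.0170). Ccr6, the chemokine receptor of TH17 cells, stood at 46.5 and 50.2 CPM in the DKO pair and at 0.123 ± 0.219 CPM in WT CXCR6+ and 0 in all WT SLAMF6+ libraries.

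Among 12 genes of the TH1 list the median log2 ratio was 0.05, with Tbx21 at least 2-fold higher and Tnf at least 2-fold lower in CXCR6+. Stat4, which carries the IL-12 signal, was level at 122 and 117 CPM, and Cxcr3, a receptor of TH1 cells, at 213 and 222 CPM.

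Genes of the T cell receptor complex set the baseline. All 16 at the level were within 2-fold, with log2 ratios from -0.18 to 0.26 and a median of -0.05. Cd3e, a signalling chain of the complex, stood at 568 and 528 CPM, Cd4, the helper coreceptor, at 314 and 327 CPM, and the kinase gene Lck at 862 and 945 CPM.

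Inhibitory receptor genes were lower in CXCR6+ in all 5 members at the level, with a median log2 ratio of -0.46. Of the 13 list genes measured, whatever their level, 10 were higher in SLAMF6+ and 3 in CXCR6+. Of the DKO libraries, Cd200 and Btla reached the level in SLAMF6+ alone, which fixed their direction. Cd200, a ligand that restrains myeloid cells and is found on follicular helper cells, stood at 5.91 against 39.3 CPM, and Btla, an inhibitory receptor, at 16.1 against 47.9 CPM. Both passed the interaction test, Cd200 with log2 -2.10 (edgeR adjusted p = 0.000471) and Btla with log2 -1.93 (adjusted p = 0.00102 by the same edgeR test). Their levels in the WT libraries were higher than in either DKO library, with Cd200 at 712 ± 48.1 and 1136 ± 80.3 CPM and Btla at 164 ± 4.48 and 131 ± 16.9 CPM in CXCR6+ and SLAMF6+ (SD, n = 5). Receptor-signal response genes of the DKO pair had a median log2 ratio of -0.32 over 12 genes, 2 of them at least 2-fold lower in CXCR6+ and 0 higher. Of the 30 list genes measured, whatever their level, 18 were higher in SLAMF6+ and 11 in CXCR6+.

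Haemoglobin transcripts set both DKO libraries apart most. They made up 11.9% of all counts in DKO SLAMF6+ (exact 95% interval 11.92 to 11.96%) and 21 counts in DKO CXCR6+, and 4 to 24 counts in each WT library. The alpha-globin genes Hba-a2 and Hba-a1 had 448467 and 101026 counts in DKO SLAMF6+ against 16 and 2 in DKO CXCR6+. The adult beta-globin genes Hbb-bs and Hbb-bt had 356961 and 83020 against 0 and 0. The embryonic genes Hbb-y, Hbb-bh1 and Hba-x were at 0 in both DKO libraries. The split between copies is uncertain, because the coding sequences of Hba-a1 and Hba-a2, and those of Hbb-bs and Hbb-bt, are each 99.8% identical (1 base apart over 429 and 444 bases, in transcripts of GENCODE M21). Of all 38-base windows of these coding sequences 90.3% of Hba-a1 and 93.1% of Hbb-bs also occur in the other copy.

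Other genes of red cell precursors were high in the same library. Of 10 genes of the erythroid list at 20 CPM or more, 8 were at least 2-fold lower in CXCR6+ and 0 higher. Their median log2 ratio was -3.26. Some reached that level in SLAMF6+ alone, which fixed their direction. Of the 21 list genes measured, whatever their level, 17 were higher in SLAMF6+ and 3 in CXCR6+. Alas2, the erythroid enzyme that starts haem synthesis, had 5 counts (0.568 CPM) against 3142 (441 CPM), 777-fold higher in SLAMF6+ (interval 333 to 2396), and read 0.571 to 3.22 CPM in the WT libraries. Slc4a1, the band 3 anion exchanger of the red cell membrane, stood at 0 against 28.2 CPM, at least 82.9-fold higher in SLAMF6+ against a floor of 3 counts. Car2, carbonic anhydrase, stood at 3.86 against 111 CPM. Fech, which completes haem by inserting iron, stood at 14.3 against 181 CPM, with an interaction of log2 -2.85 (edgeR adjusted p = 0.000739). Epor, the erythropoietin receptor gene, was at 0 in both libraries. Slc4a1 had no counts in any WT library, so its ratio could not be set against one in WT.

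The promoters of these genes (the 250 bases before the start of transcription, from RefSeq, GRCm38.p6) are printed because the haemoglobin genes and Alas2 carry the largest ratios, in lower case with each match to GATAA and each match to CACCC, and in the globin genes each match to ATTGG, on either strand in capitals, for Hbb-bs (chr7:103827929-103828178, minus strand), Hba-a2 (chr11:32296242-32296491, plus strand) and Alas2 (chrX:150547167-150547416, plus strand):
Hbb-bs: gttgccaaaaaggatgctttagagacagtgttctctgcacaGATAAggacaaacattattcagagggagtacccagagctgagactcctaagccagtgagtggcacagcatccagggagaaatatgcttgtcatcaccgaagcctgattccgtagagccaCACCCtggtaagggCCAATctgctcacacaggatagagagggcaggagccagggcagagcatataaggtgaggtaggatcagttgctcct
Hba-a2: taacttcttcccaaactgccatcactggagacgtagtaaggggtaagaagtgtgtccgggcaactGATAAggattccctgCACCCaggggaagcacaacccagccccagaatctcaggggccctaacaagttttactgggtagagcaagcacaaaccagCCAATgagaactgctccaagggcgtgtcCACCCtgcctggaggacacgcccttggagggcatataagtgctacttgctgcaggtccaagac
Alas2: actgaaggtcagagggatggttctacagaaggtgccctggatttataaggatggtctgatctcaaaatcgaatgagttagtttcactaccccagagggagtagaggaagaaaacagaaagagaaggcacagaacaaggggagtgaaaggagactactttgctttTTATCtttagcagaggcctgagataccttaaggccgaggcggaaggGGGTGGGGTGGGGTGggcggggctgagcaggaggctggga

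GATAA, the core of the element that GATA1 is known to bind, and CACCC, that of KLF1, the erythroid Krüppel-like factor, were each found in the promoters of Hbb-bs, Hbb-bt, Hba-a1, Hba-a2 and Alas2. Of 4 promoters of genes outside the erythroid set, that of S100a9 also held both, that of H2-Aa held CACCC, and those of S100a8 and H2-Eb1 held neither. Over all 32851 promoters of the table, 22.6% held GATAA, 52% held CACCC and 10.1% held both. ATTGG, read CCAAT on the opposite strand, was found in the 4 globin promoters and not in that of Alas2, against 33.8% of all promoters. Such matches describe these letters and show no binding.

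Neutrophil genes lay mostly on the other side. All 4 genes of the neutrophil list at 20 CPM or more were at least 2-fold higher in CXCR6+. Their median log2 ratio was 5.18. Camp and Ngp reached that level in CXCR6+ alone, which fixed their direction. Of the 16 list genes measured, whatever their level, 9 were higher in CXCR6+ and 5 in SLAMF6+. The list summed to 1069 CPM in CXCR6+, against 100.2 CPM in SLAMF6+ and 0.571 to 5.37 CPM in the WT libraries. S100a8 and S100a9, the chains of calprotectin, stood at 489 and 419 CPM in CXCR6+ against 25.4 and 44.3 CPM in SLAMF6+. Both had 0 counts in all 10 WT libraries. Camp, the cathelicidin gene, had 708 against 2 counts, a ratio of 286 (interval 78.9 to 2367), and Ngp, a granule protein gene, 237 against 1 (interval of the ratio 34.1 to 7598). Mmp25, a neutrophil protease gene, stood at 24.1 against 6.18 CPM. Ly6g, the surface marker of mature neutrophils, had 14 against 0 counts, while Retnlg, another neutrophil gene, had 0 against 71. Neutrophil markers were thus present in both DKO libraries, with different genes on each side.

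MHC class II genes were higher in SLAMF6+ in both genotypes. Of 5 genes at the level in the dendritic cell and MHC class II list, 4 were at least 2-fold lower in DKO CXCR6+, with a median log2 ratio of -2.50. H2-Aa stood at 38.4 against 303 CPM (7.90-fold higher in SLAMF6+, interval 7.04 to 8.88), H2-Ab1 at 103 against 587 CPM, H2-Eb1 at 46.6 against 257 CPM and Cd74, the invariant chain gene, at 60.1 against 340 CPM. Mouse T cells do not normally make these proteins, which present peptides on antigen-presenting cells. H2-DMa, a peptide-loading chaperone gene, was closer to level at 50.7 against 62.0 CPM. In WT the ratio had the same direction at lower levels. H2-Aa read 1.20, 0.667, 2.63, 3.74 and 0.674 CPM in WT CXCR6+ and 7.41, 10.3, 8.24, 5.44 and 10.2 CPM in WT SLAMF6+, without overlap.

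All 4 fell in WT CXCR6+ by the edgeR test, with log2 differences of -2.17 for H2-Aa (adjusted p = 0.00209), -1.13 for H2-Ab1 (0.000331), -1.38 for H2-Eb1 (0.00569) and -1.65 for Cd74 (4.45e-06). Over all genes tested, 17.6% (3819) were called lower in WT CXCR6+, and 1796 with totals in place of TMM. The interaction was not called for H2-Ab1 (log2 -1.40, edgeR adjusted p = 0.0509) or Cd74 (log2 -0.86, adjusted p = 0.117). The H2-Ab1 interaction did pass without WT CXCR6+ replicate 3 (-1.54, edgeR adjusted p = 0.00368), and that of Cd74 without WT SLAMF6+ replicate 4 (-0.76, edgeR adjusted p = 0.0498). Both also passed with DESeq2 and with totals in place of TMM. Over all alternatives the adjusted p ran from 0.000973 to 0.103 for H2-Ab1 and from 0.0230 to 0.236 for Cd74.

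The promoters of 2 class II genes are shown with ATTGG (the core of the Y box of class II promoters, on either strand) in capitals, again 250 bases before the start (RefSeq, GRCm38.p6), for H2-Aa (chr17:34287824-34288073, minus strand) and H2-Eb1 (chr17:34305617-34305866, plus strand):
H2-Aa: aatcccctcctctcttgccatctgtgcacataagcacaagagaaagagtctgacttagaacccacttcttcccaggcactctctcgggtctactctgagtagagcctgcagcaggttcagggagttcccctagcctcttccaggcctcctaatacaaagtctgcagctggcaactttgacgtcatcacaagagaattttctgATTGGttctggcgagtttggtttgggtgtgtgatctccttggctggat
H2-Eb1: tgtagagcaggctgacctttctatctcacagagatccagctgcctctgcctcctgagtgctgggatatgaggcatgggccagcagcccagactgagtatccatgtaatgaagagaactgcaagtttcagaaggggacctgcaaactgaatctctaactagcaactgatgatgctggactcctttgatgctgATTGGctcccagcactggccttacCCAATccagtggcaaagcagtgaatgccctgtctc

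Markers of antigen-presenting cells other than class II were uneven. Xcr1, the receptor of cross-presenting dendritic cells, had 0 against 114 counts, and Siglech, a gene of plasmacytoid dendritic cells and microglia, 0 against 168 counts. Csf1r, the macrophage growth factor receptor, stood at 1.02 against 12.6 CPM. In the opposite direction Cd209a, a monocyte-derived dendritic cell gene, stood at 12.7 against 0.281 CPM (112 and 2 counts, interval of the ratio 12.2 to 378), and Lyz2, lysozyme, at 10.2 against 1.83 CPM. Among the 15 lowest ratios were further genes of myeloid cells, Plbd1 (2.61 against 65.1 CPM), Dnase1l3 (1.25 against 35.1 CPM), Ctsl (0.681 against 20.2 CPM) and Cd36 (0 against 22.9 CPM). Cd24a, a surface protein of immature blood cells, stood at 1.70 against 63.8 CPM, with an interaction of log2 -3.84 (edgeR adjusted p = 0.00692).

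NK cell receptors were uneven. Of 14 genes of the NK cell list, whatever their level, 12 were higher in SLAMF6+ and 2 in CXCR6+. With no limit on level all genes also tilted to SLAMF6+, with 7029 at least 2-fold lower in CXCR6+ and 4762 higher. At the level were 5 of the list, 3 of them at least 2-fold lower in CXCR6+ and 0 higher. These 3, Klra4, Klra8 and Klrb1c, reached the level in SLAMF6+ alone, which fixed their direction. Klra4 and Klra8, receptors of the Ly49 family, stood at 1.93 against 30.4 CPM and 4.66 against 38.6 CPM, and Klrb1c, NK1.1, at 2.50 against 21.1 CPM. Klra8 had 0 counts in all 10 WT libraries, and Klra4 and Klrb1c had counts in 1 WT library each. Of the receptors that T cells also carry, Klrk1 (157 against 80.0 CPM) and Klrc1 (16.7 against 5.48 CPM) were higher in CXCR6+, and Klrd1 was level (94.3 against 98.8 CPM). Ly49 genes are near-identical copies, so reads may be split among them. Tyrobp, an adaptor of NK and myeloid receptors, stood at 33.1 against 166 CPM. Cd8a, the coreceptor of cytotoxic T cells, had 0 against 108 counts, and Cd8b1 10 against 15. Itga1, an integrin of tissue-resident lymphocytes, lay on the CXCR6+ side at 18.6 against 3.23 CPM.

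Markers that define other cells of the CNS were at or near 0. P2ry12 of microglia, Gfap and Slc1a2 of astrocytes, Snap25 and Syt1 of neurons, Col1a2 and Col3a1 of fibroblasts and Ms4a1 of B cells had 0 counts in both DKO libraries. Cldn5, an endothelial gene, had 0 and 1 counts. Platelet genes Pf4 and Ppbp and mast cell genes Mcpt4 and Mcpt8 had 0 counts in both. Summed over the whole list, erythroid markers came to 304 CPM in DKO CXCR6+, 1620 CPM in DKO SLAMF6+ and 334 to 764 CPM in WT. The same sums were 335, 1624 and 404 to 899 CPM for the dendritic cell and class II list and 392, 519 and 191 to 405 CPM for the NK list. The part of these cells in the ratios of the programme lists was not tested.

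**Figure D4:**
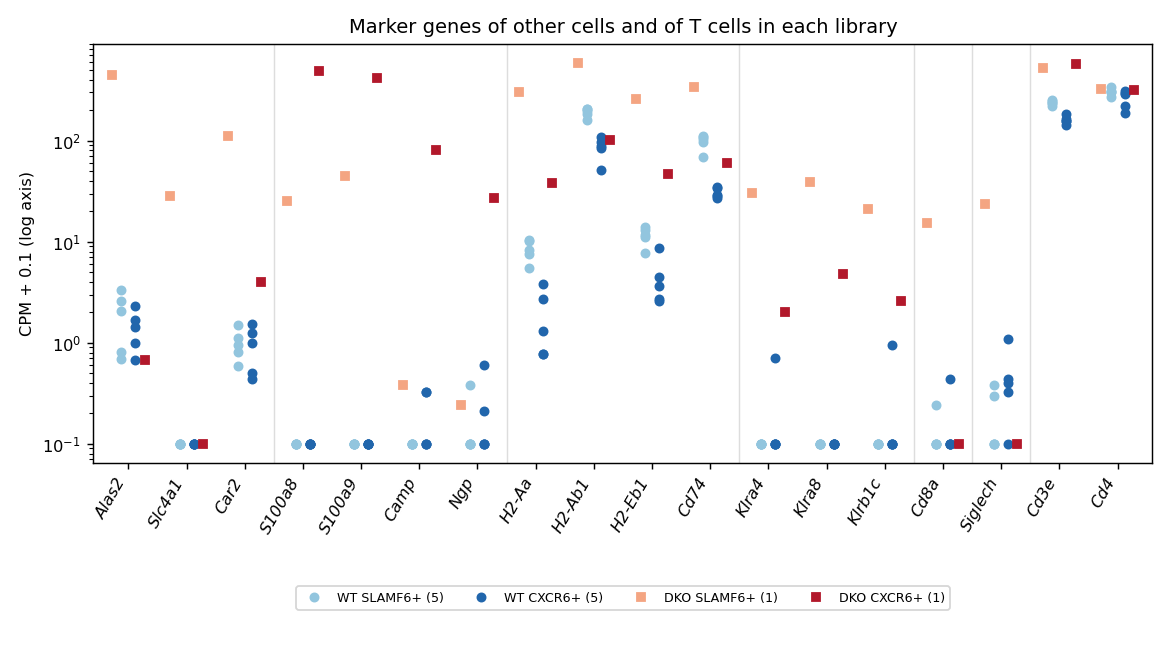
Level of marker genes in each of the 12 libraries, on a log axis of CPM + 0.1, so that points at 0.1 had 0 counts. From the left are erythroid, neutrophil, MHC class II, NK, CD8 and plasmacytoid or microglial genes, then Cd3e and Cd4. S100a8 reaches 489 CPM in the DKO CXCR6+ library, Alas2 reaches 441 CPM in the DKO SLAMF6+ library, while Cd4 is near level.

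Of the 97 protein-coding genes at least 2-fold higher in DKO CXCR6+, 4 were in the lists of other cells and 4 in the programme lists, so most belonged to neither. Of the 117 lower, 18 were in the lists of other cells and 23 in the programme lists, and a gene can be in both. The share of all protein-coding genes at the level that these lists hold was not worked out. These counts therefore do not show that called genes belonged to the lists more often than other genes. Ccdc66, a centrosomal protein gene, stood at 27.1 against 6.89 CPM, Il17rc, an IL-17 receptor subunit, at 23.5 against 7.31 CPM, and Hrh4, a histamine receptor gene of blood cells, at 39.4 against 11.5 CPM. Xpa, a DNA repair gene, stood at 21.8 against 7.03 CPM, and Zfp959, a zinc finger gene, at 20.1 against 6.74 CPM. Serpinb1a, an inhibitor of granule proteases, stood at 36.6 against 11.5 CPM. H2ac24, a histone gene with near-identical copies, stood at 328 against 107 CPM. For Il17rc, with 52 counts in the lower library, the interval of the ratio was 2.36 to 4.45.

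Some genes were shared with the WT contrast. Of 4912 protein-coding genes, 214 were at least 2-fold apart in the DKO pair and 660 were called and at least 2-fold apart in WT (214 higher, 446 lower). In the same direction were 6 genes higher and 19 lower in CXCR6+, and 6 were opposite. The shared genes are 11.7% of the DKO genes and 3.79% of the WT genes. Of the 97 genes higher in the DKO pair 6 were thus higher in WT, beside 214 of all 4912 genes. Of the 117 lower 19 were lower in WT, beside 446 of all 4912. Whether this exceeds the overlap of unrelated lists was not tested. Besides Slamf6, Ccr7 and the class II genes, the 19 included Ifi27l2a (745 against 1677 CPM) and Isg20 (29.6 against 143 CPM), which are induced by interferon. Among the 6 higher in both was Senp6, a SUMO protease gene, at 55.7 against 17.6 CPM in the DKO pair and 52.1 ± 7.17 against 18.1 ± 2.09 CPM in WT (n = 5). The 6 opposite genes included Ifitm2 and Ifitm3, both membrane proteins that restrict viruses. Ifitm2 stood at 539.6 against 218 CPM in the DKO pair, whereas WT libraries read 224 to 254 CPM in CXCR6+ and 506 to 636 CPM in SLAMF6+.

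Over all 21681 genes tested, the interaction was called for 1379 genes (6.36%) with a higher ratio in the DKO pair and 833 (3.84%) with a lower one, 2212 (10.2%) in all. With totals in place of TMM these were 672 and 1228, so the majority changed side with the scaling. Ifitm2 (log2 2.58, adjusted p = 0.000150) and Ifitm3 (2.74, adjusted p = 0.0153) were among them by the edgeR test. So were Ide (1.72), Rgcc (2.05) and Rps15a (1.54), among the smallest p in the higher direction, of edgeR adjusted p 0.000578, 0.00101 and 0.00102. Rps15a, which encodes a ribosomal protein, was level in the DKO pair (2713 against 2895 CPM) and fell in WT CXCR6+ by 1.65 on the log2 scale (edgeR adjusted p = 4.01e-07). In the lower direction Ube2l6, an enzyme of ISG15 conjugation that red cell precursors also carry, stood at 14.1 against 179 CPM (interaction log2 -3.16, edgeR adjusted p = 0.000303). Phxr4 stood at 17.5 against 33.6 CPM in the DKO pair and at 68.7 ± 10.1 against 17.0 ± 1.52 CPM in WT (n = 5; interaction log2 -2.99, edgeR adjusted p = 0.000646).

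Metabolic genes were level in the DKO pair and lower in CXCR6+ in WT. The 14 glycolysis and hypoxia genes at the level had a median log2 ratio of -0.11 in the DKO pair and -0.88 in WT, with 0 at least 2-fold apart in the DKO pair. The interaction was called higher for 11 of 21 tested and lower for 0, and with totals in place of TMM for 6. Tpi1, a glycolytic enzyme, stood at 66.4 against 45.8 CPM in the DKO pair and at 953 ± 83.3 against 2025 ± 128 CPM in WT (n = 5), with an interaction of log2 1.58 (edgeR adjusted p = 0.00121). The 22 nuclear genes of the respiratory chain had a median of -0.02 in the DKO pair and -0.85 in WT, and 15 of 23 were called higher in the interaction (8 with totals). Ndufa1, a complex I subunit, stood at 547 against 418 CPM in the DKO pair and 218 ± 7.96 against 413 ± 31.5 CPM in WT (n = 5; interaction log2 1.27, edgeR adjusted p = 0.00121).

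Mitochondrially encoded messenger RNAs went the other way round. In the DKO pair 12 of 13 were lower in CXCR6+, with a median log2 ratio of -0.58 and 0 at least 2-fold lower. The exception, mt-Nd4l, was at least 2-fold higher (308 against 53.0 CPM). In WT the median was 1.63. The interaction was called lower for 11 of 13 under TMM and under totals. The gene mt-Co3, a subunit of cytochrome oxidase, stood at 915 against 1477 CPM (interaction log2 -2.25, edgeR adjusted p = 0.00767). Of all counts without haemoglobin, mitochondrial genes took 7.45% in DKO CXCR6+ and 9.72% in DKO SLAMF6+, against 12.9 to 17.6% in WT CXCR6+ and 2.20 to 5.24% in WT SLAMF6+. Both DKO libraries thus lay between the WT groups. Whether this share bears on the metabolic ratios, which are read from the same totals, was not tested.

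**Figure D5:**
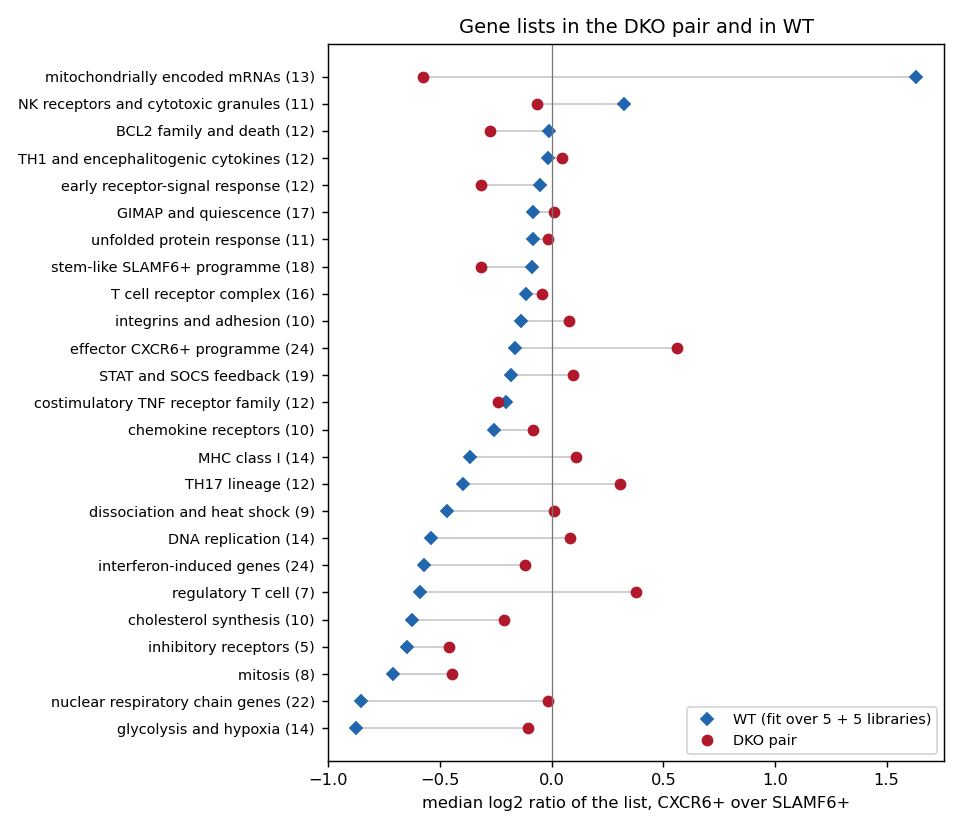
Median log2 ratio of CXCR6+ over SLAMF6+ for each list of T cell programmes and cell functions with at least 5 genes at 20 CPM or more (number in brackets; lists of other cells are not plotted), in the DKO pair (points) and in WT (diamonds, from the fit over 5 and 5 libraries). The mitochondrially encoded mRNAs lie at -0.58 in the DKO pair and 1.63 in WT, the widest gap among the lists plotted.

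Cell cycle genes were split. Of 8 mitosis genes at the level, 3 were at least 2-fold lower in DKO CXCR6+ and 0 higher, with a median log2 ratio of -0.45. These 3 reached the level in SLAMF6+ alone, which fixed their direction. Of the 24 list genes measured, whatever their level, 17 were higher in SLAMF6+ and 7 in CXCR6+. Ube2c, which marks cells leaving mitosis, stood at 10.6 against 67.0 CPM (interaction log2 -1.90, edgeR adjusted p = 0.00655), Cdk1 at 15.9 against 46.5 CPM and Cdc20 at 7.72 against 20.5 CPM. Of 14 replication genes, 1 was at least 2-fold higher and 0 lower, with a median of 0.08. That gene was Rrm2, which supplies deoxynucleotides, at 34.0 against 15.5 CPM (interaction log2 1.82, edgeR adjusted p = 0.00561). Rrm2 reached the level in CXCR6+ alone, which fixed its direction. Of the 24 replication genes measured, whatever their level, 13 were higher in CXCR6+ and 11 in SLAMF6+. Top2a and Mki67, common proliferation markers, were near level at 35.8 and 33.2 CPM and at 13.2 and 11.0 CPM. In WT, Ube2c was 179 ± 29.7 CPM in CXCR6+ and 313 ± 50.5 CPM in SLAMF6+ (n = 5). Erythroid precursors, whose markers were high in the DKO SLAMF6+ library, also divide, and their part in the mitosis genes was not tested.

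Interferon-induced genes had a median log2 ratio of -0.12 over 24 genes, with 4 at least 2-fold lower in CXCR6+ and 0 higher. The median was 0.14 with haemoglobin kept and no TMM factor. Of the 32 list genes measured, whatever their level, 20 were higher in SLAMF6+ and 12 in CXCR6+. Rsad2, viperin, stood at 3.07 against 48.8 CPM in the DKO pair and under 1 CPM in all WT libraries. Mx1, below the level limit, lay on the opposite side at 13.6 against 2.95 CPM. MHC class I genes were level, with 0 of 14 at least 2-fold apart and a median of 0.11.

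T cell receptor segment usage differed between the DKO libraries. Of 31 Trbv segments, 22 had counts in CXCR6+ and 25 in SLAMF6+, and 16.7% of Trbv usage would have to be moved between segments to make both libraries equal (35.6% for Trav). Trbv13-2 was the most used in both, at 21.6% and 19.0% of Trbv counts. Trbv1 made up 9.70% in CXCR6+ (95% exact binomial interval 9.19 to 10.2%) and 17.1% in SLAMF6+ (16.4 to 17.8%). Trav7-6 made up 3.99% of Trav counts in CXCR6+ and 0.485% in SLAMF6+, and Trav17 0.253% and 3.74%. Traj18 had 938 counts in SLAMF6+ and 0 in CXCR6+ and in all WT libraries. Counts of 1 clone or cell are not independent, so these intervals understate the error of a sample of 1000 cells. The segments named here were chosen after their values were seen.

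Some short RNAs were present in 1 library and at 0 in the other. Among genes at the level, 32 small RNAs were at least 2-fold higher in CXCR6+ and 42 lower, leaving 16 within 2-fold. The mitochondrial tRNA gene mt-Tc had 0 counts in CXCR6+ and 12342 in SLAMF6+, mt-Tl1 had 2874 and 0, and the microRNA gene Mir3064 had 0 and 2219. In WT, mt-Tc ranged from 0 to 604 CPM in CXCR6+ and was at 0 in all SLAMF6+ libraries, so single libraries of 1 group also differed this widely. These 3 genes were chosen after their values were seen. Their ratios are given as values only.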

How the data were processed

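The authors deposited 1 table of expected counts per gene for the 12 libraries, made with STAR 2.7.7a, RSEM 1.3.3 and mm10 per the submitters' processing notes. Libraries were made by a modified SMART-Seq2 protocol per the labels, which does not mark strand, so antisense and overlapping genes cannot be told apart. Expected counts were rounded, and 10 haemoglobin genes were left out of library sizes. Levels are CPM with TMM factors, and log2 ratios use a prior count of 2. Genes of at least 20 CPM in the higher DKO library are described, with 2-fold as the limit and a floor of 3 counts. Intervals of ratios are exact 95% intervals of the counts.

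The interaction, and the WT contrast, were tested with edgeR 4.0.16 (quasi-likelihood, Benjamini-Hochberg, threshold 0.05, 4 groups, no block) on 21681 genes, in R 4.3.3. The code was also run on simulated counts with a smaller spread (dispersion 0.05, against 0.397 estimated here). Simulated DKO libraries varied like WT ones, so that run cannot check the assumption on which the interaction rests. DESeq2 1.42.0 and limma 3.58.1 served as alternatives. Of the symbols, 41368 (87.3%) matched GENCODE M21.

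The libraries compared and all gene lists were chosen with earlier results of these data known. Genes were named by rule: sorted, targeted and haemoglobin genes, the 15 highest and 15 lowest ratios, members of the effector, stem-like, TH17 and TH1 lists at the level, the 4 largest ratios and first 4 markers of other lists, and the 5 smallest interaction p in each direction. Cd3e, Cd4, Lck, H2-DMa, Ifitm3, Top2a, Mki67, Cdc20, Klrc1, mt-Nd4l and the embryonic globin genes were named after their values were seen. Results for some genes are not reported here.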

Additional observations from a re-analysis of the deposited data

Results flagged for a closer look

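For 24 of the 30 genes with an interaction value the CXCR6+ to SLAMF6+ difference was called different between the DKO pair and WT, by edgeR's test of that difference, 13 with a higher and 11 with a lower ratio in the DKO pair. Some of these genes were named for a small interaction p or an extreme ratio, so this share is set by the choice, and over all genes tested it was 10.2%. Among programme genes the interaction was log2 -3.06 for Tnf, -3.99 for Izumo1r, -2.10 for Cd200, -1.93 for Btla and -1.13 for Cd27. It was 1.13 for Bhlhe40, 1.18 for Il2rb, 1.10 for Lgals1, 1.33 for Ltb4r1 and 2.32 for Tmem176b. Among the smallest p-values it was 2.58 for Ifitm2, 1.72 for Ide, 2.05 for Rgcc, 1.54 for Rps15a, -3.16 for Ube2l6 and -2.99 for Phxr4. For other genes it was 2.74 for Ifitm3, -2.85 for Fech, -3.84 for Cd24a, 1.58 for Tpi1, 1.27 for Ndufa1, 1.82 for Rrm2, -1.90 for Ube2c and -2.25 for mt-Co3.

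In 4 of 81 WT groups of 5 libraries looked at, the gap between 1 library and the next was large for the range of the group. These were Phxr4 in WT CXCR6+ replicate 5 (86.5 CPM), Ifi27l2a in WT SLAMF6+ replicate 5 (3045 CPM), Gzmk in WT CXCR6+ replicate 3 (0.114 CPM, which is 1 count beside 0 in the other libraries) and Rrm2 in WT SLAMF6+ replicate 4 (167 CPM). Chance flags about 1 in 20 such groups.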

How the results depend on the processing

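The DKO pair's counts of 180 genes at least 2-fold higher and 224 lower in CXCR6+ depended on the level and the library size. They were 358 and 146 with haemoglobin kept and no TMM factor (183 and 226 with haemoglobin kept and TMM), 288 and 348 with mitochondrial, ribosomal protein and segment genes also left out, 4762 and 7029 with no limit on level, 432 and 498 from 10 CPM, 54 and 83 from 50 CPM, and 57 and 110 at 4-fold. Without segments, unnamed models and pseudogenes 119 were higher, and among protein-coding genes alone, an alternative chosen after seeing the data, 97 and 117. The interaction counts of 1379 higher and 833 lower became 1812 and 1475 with DESeq2, 1047 and 493 with no filter on low counts, and 672 and 1228 with totals in place of TMM. Leaving out a replicate number gave 1051 to 1249 and 631 to 745, and leaving out a single WT library 1139 to 1473 and 717 to 865. A replicate block gave 1024 and 528. Whether the numbers pair the samples was not settled. Deviations of same-numbered WT libraries correlated by -0.01 to 0.03, too weakly to tell a small shared effect from none. With totals in place of TMM most interaction calls thus lay on the lower side, and the pair's counts were 209 and 195. The WT contrast called 3350 genes higher and 3819 lower with TMM, and 5653 and 1796 with totals. No named gene's interaction or WT difference changed sign. The sign of 19 gene ratios and 11 list medians of the DKO pair, of at most 0.24 in size, changed with another library size. Counting error limits genes with few reads, and 1 library per DKO group leaves their own spread unmeasured.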
